A study of Mus musculus with 10 samples.

Results

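Cytosolic ribosomal protein genes code for the protein part of the ribosomes that make nearly all of a cell's proteins. The genes were chosen by name: those made of Rps (small subunit) or Rpl (large subunit) and a number. After the number, at most 1 letter (a, x, y or l) and then at most 1 digit could follow. Rpsa, Rplp0, Rplp1 and Rplp2 were added, and pseudogene names were left out. The rule found 83 genes among the 32285 in the count tables, 32 with small subunit names and 51 with large subunit names. All 83 had at least 1 unique molecular identifier (UMI, 1 per captured mRNA molecule) in the cells used. Of these, 82 passed the filter on low counts, and Rpl10l did not. On GRCm38 (GENCODE vM21) the 83 genes lay on 19 chromosomes, with 14 on chromosome 7, and all were annotated as protein coding.

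Ribosomal proteins are made in near equal amounts, since each is present once in a ribosome, apart from the stalk proteins Rplp1 and Rplp2, which are present as more than 1 copy. Their mRNAs begin with a run of pyrimidines, the 5′ TOP motif, through which growth signals set their translation together. Several have a paralog, a second gene for a closely related protein, that is used in particular tissues.

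The cells came from Peyer's patches, which are lymphoid organs in the wall of the small intestine, and from blood of female C57BL/6Rj mice. LysoDCs are lysozyme-expressing phagocytes of Peyer's patches, sorted as follicular, immature, intermediate and mature cells, and cDC2s are conventional type 2 dendritic cells, sorted as immature and maturing cells. The blood cells had high CD115. They were sorted as Ly6C+ or CD43+ monocytes or as cells that lacked both Ly6C and CD43 (DN blood cells). Blood donors had received clodronate liposomes, which deplete phagocytes, 9 days before collection, whereas Peyer's patch donors were untreated. Only the Peyer's patches were digested with collagenase and enriched for CD11c, so tissue, clodronate and handling cannot be told apart when a Peyer's patch population is set against blood. Every population was sorted from pooled mice and marked with hashtags, which are antibodies carrying a DNA barcode. Dataset 1 was 1 mRNA library of 9 populations (30 Peyer's patch donors and 20 blood donors), tagged after the sort. Dataset 2 had 4 mRNA libraries (20 and 18 donors), tagged before the sort, in which LysoDCs of all kinds carried the same 4 tags and are treated as 1 population. By their titles, the mRNA libraries of dataset 2 held 1 blood population each, so population and library cannot be told apart there. The DN blood cells of dataset 2 came from 2 of these libraries, titled as CCR2+ and CCR2- DN cells, which carried the same tag and are 1 sum here. For 1 of the 4 mRNA libraries of dataset 2, title and hashtag list disagree on the LysoDC subset.

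After hashtag calling and filtering, 7217 cells of dataset 1 and 7470 of dataset 2 remained, and 37 barcodes occurred in both datasets. Per population 261 to 4971 cells were used, with median depths from 2312 to 14279 UMIs and totals from 2022332 to 28778760 UMIs. Among monocytes, defining markers followed the sort gates. Spn, which codes for CD43, was at 680 and 688 CPM (UMIs per 1000000) in CD43+ monocytes of datasets 1 and 2. It was at 49.0 and 54.6 CPM in Ly6C+ monocytes. DN blood cells, sorted as lacking CD43, had 106 and 61.2 CPM, above Ly6C+ monocytes in both datasets. Ly6c2, a gene for Ly6C, was at 1288 and 1059 CPM in Ly6C+ monocytes and 116 CPM or less in DN blood cells. The cDC2 marker list summed to 1435 and 1937 CPM in DN blood cells. It summed to 1316 and 1102 CPM in immature and maturing cDC2s. The part of cDC2s among DN blood cells was not tested. C1qa, a complement gene of LysoDCs, was at 8726 and 7806 CPM in LysoDCs. In the blood populations it was between 454 and 526 CPM in dataset 1 and between 31.6 and 84.3 CPM in dataset 2. The source of that difference between datasets was not tested. The erythroid marker list summed to 390 CPM in DN blood cells of dataset 1 and 406 CPM in CD43+ monocytes of dataset 2, and to between 0.577 and 27.4 CPM in the other blood sums. Its part in the results was not tested.

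LysoDCs gave the smallest share of their mRNA to ribosomal proteins and DN blood cells the largest, in both datasets. The 83 genes took up 14.5% of UMIs in LysoDCs of dataset 1 and 14.4% in dataset 2. CD43+ monocytes followed with 17.9% and 17.2%, then Ly6C+ monocytes with 20.8% and 22.6%. The largest shares were those of DN blood cells, 25.1% and 28.4%. In the same order the means were 14.5% ± 0.0615, 17.6% ± 0.518, 21.7% ± 1.30 and 26.8% ± 2.34 (SD, n = 2 pools of mice each), and no pool of one population overlapped with a pool of another. The cDC2s of Peyer's patches, measured in dataset 1 only, were at 22.7% when immature and 23.8% when maturing, closer to Ly6C+ monocytes than to the LysoDCs of their own tissue. Counting error is small beside these differences: the widest Wilson 95% interval ran from 23.8% to 23.9%, in maturing cDC2s. No test is given for the summed share, because the genes were chosen with earlier results of these data known.

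**Figure D1:**
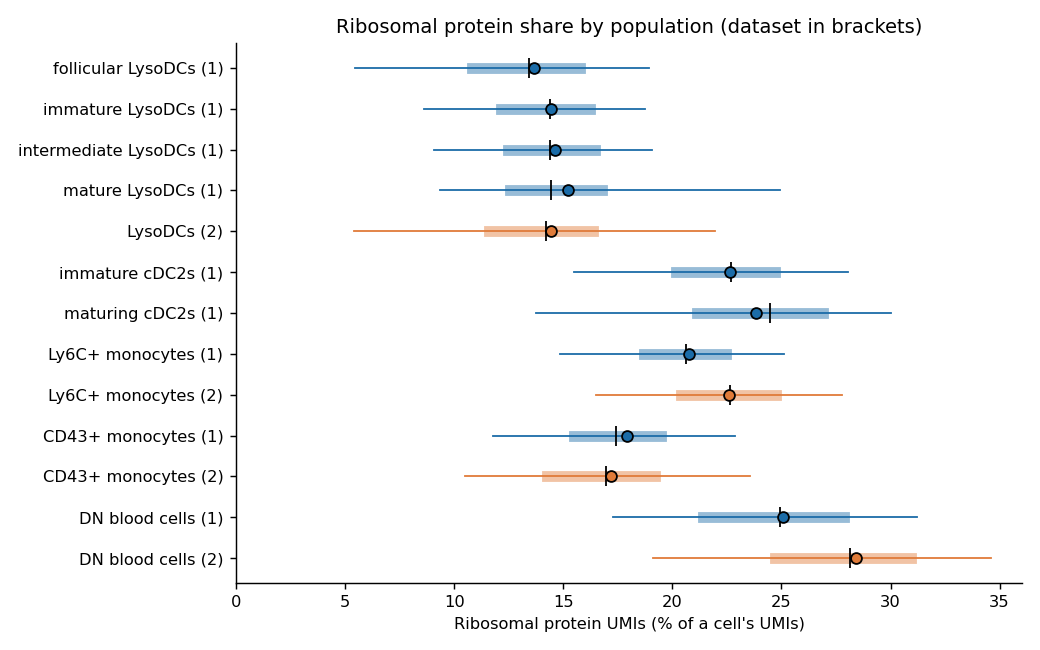
Share of each cell's UMIs that came from the 83 ribosomal protein genes (horizontal axis, percent) for 13 sorted populations, with the dataset in brackets (blue dataset 1, orange dataset 2). Thin lines run from the 5th to the 95th percentile of cells, thick bars cover the quartiles, ticks are medians and circles are the shares of summed UMIs, which run from 13.6% in follicular LysoDCs to 28.4% in DN blood cells of dataset 2.

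LysoDCs had the lowest share although their cells did not hold the fewest ribosomal protein UMIs. The median LysoDC held 1850 ribosomal protein UMIs in dataset 1 and 1316 in dataset 2. Of the blood populations, the median Ly6C+ monocyte held 904 and 1317, the median CD43+ monocyte 528 and 405, and the median DN blood cell 1120 and 1456. LysoDCs were thus above all blood populations in dataset 1, and level with Ly6C+ monocytes and below DN blood cells in dataset 2. Of other genes, LysoDCs held a median of 11197 and 7639 UMIs per cell against 1908 to 4594 in the blood populations. The order of shares was the same among cells of matched depth (6000 to 12000 UMIs), where the median cell gave 13.2% and 14.5% in LysoDCs, 18.6% and 15.5% in CD43+ monocytes and 22.6% and 23.1% in Ly6C+ monocytes. It gave 26.4% and 29.6% in DN blood cells. Only 70 and 39 CD43+ monocytes were that deep. In these sums, fewer cells of one kind and less RNA per cell cannot be told apart.

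**Figure D2:**
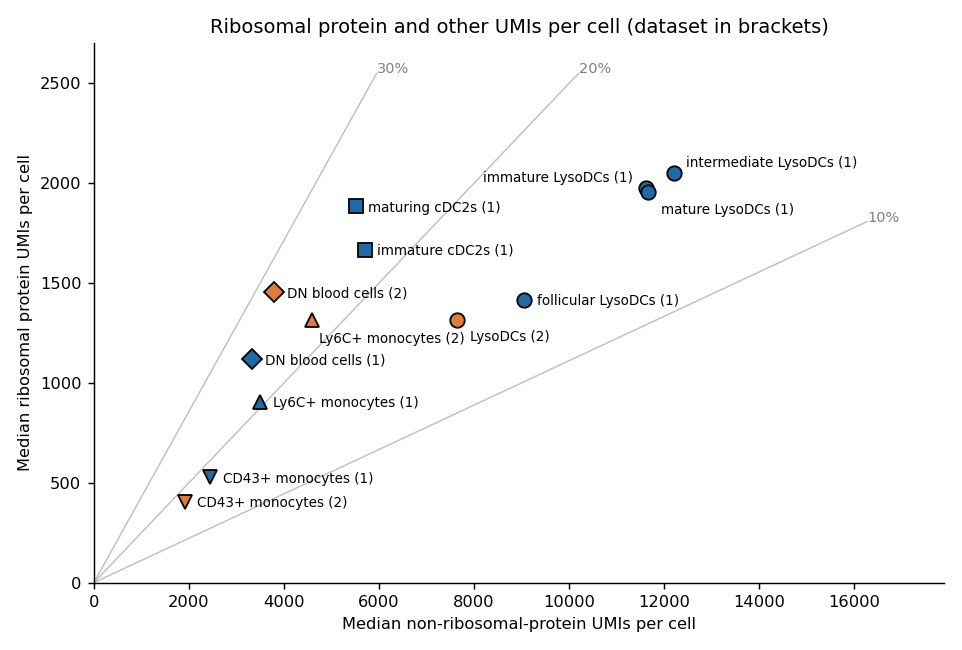
Median ribosomal protein UMIs per cell (vertical axis) against median UMIs of all other genes per cell (horizontal axis) for 13 populations, dataset in brackets; grey lines mark ribosomal protein shares of 10%, 20% and 30%. LysoDCs lie far to the right at 1316 to 2052 ribosomal protein UMIs, and CD43+ monocytes lie lowest at 405 and 528.

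Small and large subunit genes kept a steady balance. The ratio of small to large subunit UMIs was 0.849 ± 0.0156 in LysoDCs, 0.855 ± 0.00966 in Ly6C+ monocytes and 0.864 ± 0.0174 in DN blood cells. It was 0.912 ± 0.00721 in CD43+ monocytes (SD, n = 2 pools each), which stood above every other population, including the cDC2s at 0.872 and 0.874. A typical LysoDC had UMIs of 79 of the 83 genes in both datasets, and a typical CD43+ monocyte of 76 and 75.

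Among LysoDC subsets of dataset 1 the share went up in small steps, with follicular cells at 13.6%, immature cells at 14.5%, intermediate cells at 14.6% and mature cells at 15.2%. By summed UMIs, not matched for depth, 80 members were at 20 CPM or more in any of these 4 populations. Of these, 49 (61.3%) went up at each step from follicular to mature, against 748 of 5413 genes of any kind (13.8%). The members were lowest in follicular LysoDCs in 73 cases and highest in mature LysoDCs in 69. Of the 5413 genes of any kind, 1902 were lowest in follicular and 1673 highest in mature LysoDCs. Single members moved little: none reached a 1.5-fold difference from immature LysoDCs, when 2.91%, 1.42% and 4.82% of all genes did so in follicular, intermediate and mature LysoDCs. The largest ratios were those of Rpl22l1, a paralog of the large subunit gene Rpl22 (1.23-fold in mature against immature cells), and of the small subunit gene Rps26 (0.802-fold in follicular cells). With 1 library, these differences have no replicate check.

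The mature gate held the most cells with a high share. In it 51 of 455 cells (11.2%) gave at least 20.2% of their UMIs to ribosomal proteins, the lower quartile of immature cDC2s. Those cells had 66.8 CPM of Flt3, a receptor of dendritic cells, against 3.01 CPM in the other mature cells. They had 2928 CPM of the 3 C1q genes together, against 15623 CPM. In the other gates of dataset 1, 2.29% to 3.54% of cells reached that share, and in LysoDCs of dataset 2 6.61% did. In each of these groups too, such cells had more Flt3 than the rest (6.43 to 23.9 against 0 to 0.801 CPM). Their C1q genes were lower in each (4492 to 15359 against 16611 to 21002 CPM). Without the cells that reached that share, follicular, immature, intermediate and mature cells were at 13.4%, 14.3%, 14.5% and 14.4%. Mature cells then lay below intermediate ones, although this limit takes out cells by the share itself. When LysoDCs had to carry at least 5 C1q UMIs, a limit set after seeing the data, 28 mature cells and 4 to 8 cells of each other gate were left out. The shares were then 13.5%, 14.5%, 14.6% and 14.9% in the same order, and 41 of 80 members went up at each step, against 13.7% of all genes. The tested comparisons of LysoDCs called as many members with this limit as without it, 33 against monocytes and 71 against DN blood cells.

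The starts of ribosomal protein genes were read from RefSeq promoters (GRCm38.p6), which cover 250 bases before to 50 bases after an annotated start and matched 63 of the 83 members by symbol. A run of at least 6 bases, all C or T and beginning with C, starting between 10 bases before and 10 bases after the annotated start on the coding strand, was found for 34 of the 63 (54.0%). The same was true of 848 of 3452 other genes that reached 50 CPM in a population (24.6%) and of 19.2% of all 32851 promoters. The windows below, of 10 bases before and 20 bases from the start, show the run in capitals in 7 members named in the comparisons. They are followed by 3 members without a run that starts within those limits. The Rpl11 window ends in a run of 6 bases that starts beyond them. Other named members, among them Rpl9, Rpl10, Rpl13, Rpl22, Rpl37a, Rps15 and Rpsa, had no run starting within those limits either.
Rpl12 (chr2:32961702-32961731, plus strand): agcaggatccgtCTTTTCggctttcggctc
Rpl14 (chr9:120571507-120571536, plus strand): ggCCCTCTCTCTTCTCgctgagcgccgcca
Rpl7a (chr2:26910797-26910826, plus strand): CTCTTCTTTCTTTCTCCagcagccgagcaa
Rps18 (chr17:33955646-33955675, minus strand): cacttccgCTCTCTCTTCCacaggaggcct
Rps26 (chr10:128626487-128626516, minus strand): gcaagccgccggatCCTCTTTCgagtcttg
Rps27 (chr3:90213629-90213658, minus strand): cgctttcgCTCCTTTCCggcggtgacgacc
Rpl22l1 (chr3:28805498-28805527, plus strand): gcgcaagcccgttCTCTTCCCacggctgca
Rplp0 (chr5:115559457-115559486, plus strand): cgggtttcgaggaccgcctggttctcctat
Rpl11 (chr4:136053374-136053403, minus strand): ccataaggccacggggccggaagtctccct
Rpl3l (chr17:24727816-24727845, plus strand): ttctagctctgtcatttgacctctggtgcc
A match describes these letters and does not show that the mRNA begins there, and no match says only that no run starts within those limits.

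LysoDCs were set against the mean of both monocyte types with edgeR's quasi-likelihood test on the 8 sums (4 populations in 2 datasets, dataset as a block). Of the 82 members tested, 30 were lower in LysoDCs, 3 were higher and 49 did not pass an adjusted p of 0.05. Of all 11458 genes 27.4% were lower and 29.9% higher, so the share of members that were lower was not far above that of all genes, while few were higher. The median member stood at -0.28 (log2), against 0.01 for all genes. Within datasets the median log2 ratio of CPM was -0.43 and -0.50, with no further scaling. By library totals alone, the median of all genes moved by -0.18 and 59 members were lower.

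Among members of at least 50 CPM, small subunit genes led those that were lower in LysoDCs. Rps27 was at 814 and 1073 CPM in LysoDCs (datasets 1 and 2), 1718 and 2522 in Ly6C+ monocytes and 2073 and 2460 in CD43+ monocytes, a log2 change of -1.03 ± 0.15 (SE; adjusted p = 0.00021, edgeR). Rps14 was at 1738 and 2034 CPM in LysoDCs against 3694 to 4540 in the 4 monocyte sums (log2 -0.91 ± 0.14, edgeR adjusted p = 0.00025). For both genes, the LysoDC sums lay below all 4 monocyte sums. Of large subunit genes, Rpl34 fell by 0.76 ± 0.15, Rpl13 by 0.61 ± 0.15 and Rpl9 by 0.60 ± 0.17 on the log2 scale (edgeR adjusted p = 0.0013, 0.0049 and 0.011). Rps27 may share reads with near-identical copies such as Rps27rt, so its level is uncertain.

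The 3 members that were higher in LysoDCs were Rplp1, Rpl22l1 and Rps20. Rplp1, a protein of the stalk that recruits elongation factors, was at 4907 and 5049 CPM in LysoDCs, 3607 and 3828 in Ly6C+ monocytes and 3349 and 3092 in CD43+ monocytes (log2 0.71 ± 0.14, edgeR adjusted p = 0.0012). Rpl22l1 was at 448 and 495 CPM against 259 to 389 (log2 0.84 ± 0.14, edgeR adjusted p = 0.00055). Neither gene's LysoDC sums overlapped with those of monocytes. Rps20, of the small subunit head, was at 3483 and 3225 CPM against 2447 to 3355 and did overlap (log2 0.36 ± 0.14, edgeR adjusted p = 0.042). It kept its call in 10 of 17 alternatives. It lost it by library totals, without the block, without any one of the 4 monocyte sums and without LysoDCs of dataset 1, with edgeR adjusted p up to 0.29. The count of members called fell from 33 to 10 without LysoDCs of dataset 2, to 14 without CD43+ monocytes of dataset 1 and to 19 without Ly6C+ monocytes of dataset 2. Rpl9 lost its call in the first and second of these, and 19 members were called without the replicate block.

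Against DN blood cells, LysoDCs were lower in most members. Of 82, 70 were lower and 1 was higher, when 26.1% of all genes were lower and 26.0% higher. The median member stood at -0.85 (log2), against -0.03 for all genes. Rps27 stood at 2145 and 3269 CPM in DN blood cells and at 814 and 1073 in LysoDCs (log2 -1.44 ± 0.17, edgeR adjusted p = 5.1e-05). Rpl13 stood at 5803 and 6974 CPM in DN blood cells and 2219 and 2507 in LysoDCs (log2 -1.37 ± 0.17, edgeR adjusted p = 6.5e-05). Rps14, Rpl11 (a protein that also restrains Mdm2) and Rpsa, which doubles as a laminin receptor, fell by 1.25, 1.22 and 1.18 on the log2 scale. Members that did not pass included Rplp1 (log2 0.05 ± 0.16) and Rpl22l1 (0.34 ± 0.17, edgeR adjusted p = 0.12). The single higher member, Rpl39l, had 3.15 CPM or less in any sum tested, and lost its call without either LysoDC sum, without DN blood cells of dataset 2 and with DESeq2.

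CD43+ monocytes gave less to ribosomal proteins than Ly6C+ monocytes. Of 82 members, 46 were lower in CD43+ monocytes and 1, the paralog Rpl3l, was higher, when 14.5% and 13.5% of all genes were. The median member stood at -0.50 (log2), against 0.01 for all genes, and within datasets the median log2 ratio of CPM was -0.23 and -0.38. Under library totals alone the median of all genes moved by 0.21 and 38 members were lower. Rpl7a was at 1179 and 1379 CPM in Ly6C+ and 741 and 589 in CD43+ monocytes (log2 -1.16 ± 0.19, edgeR adjusted p = 0.0015). Rps18 was at 2279 and 3300 CPM against 1635 and 1617 (log2 -0.96 ± 0.19, edgeR adjusted p = 0.0041). The stalk base gene Rplp0 was at 4365 and 4225 CPM against 2873 and 2257 (log2 -0.96 ± 0.17, edgeR adjusted p = 0.002). Rpl22, Rpl29 and Rpl10 fell by 0.92, 0.91 and 0.91. For each of these 6 genes the value in CD43+ monocytes was the lower one in both datasets. The small subunit genes Rps19 (log2 -0.07 ± 0.16) and Rps27 (-0.08 ± 0.17) were among the 35 that did not pass.

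How many members were called between monocytes depended on single sums. Without CD43+ monocytes of dataset 2, 3 members were called in place of 47, and Rps18, Rplp0, Rpl22, Rpl29 and Rpl10 lost their calls, with log2 changes of -0.75 to -0.85. Without Ly6C+ monocytes of dataset 2 the count was 10 and Rps18 lost its call, without CD43+ monocytes of dataset 1 it was 27, and without the replicate block it was 25.

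DN blood cells were richest in ribosomal protein mRNA. Against CD43+ monocytes, 75 of 82 members were higher and 1, Rpl3l, was lower, when 17.1% and 16.2% of all genes were. The median member stood at 0.83 (log2), against 0.01 for all genes. Rpl12, of the stalk base, was at 2066 and 2912 CPM in DN blood cells against 1004 and 1074 (log2 1.47 ± 0.18, edgeR adjusted p = 0.00023). Rpl7a, Rps26, Rpl14, Rpl10a and Rpl32 followed, with log2 changes of 1.26, 1.26, 1.25, 1.25 and 1.23. Both DN sums lay above both CD43+ sums in all 6. Without CD43+ monocytes of dataset 2, 27 members were higher. DN blood cells, CD43+ and Ly6C+ monocytes enter more than 1 of these comparisons, so their counts are not independent.

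Against Ly6C+ monocytes the median member stood at 0.32 (log2), against 0.01 for all genes, but only 3 of 82 members passed as higher and 0 as lower in edgeR's test. Of all genes 7.37% were higher and 7.39% lower. At an unadjusted p under 0.05 the counts were 28 and 0, and DESeq2 called 8 and 0. They included Rpl12 (1346 and 1714 against 2066 and 2912 CPM in DN blood cells, log2 0.71 ± 0.18, edgeR adjusted p = 0.025) and Rpl14 (1061 and 1190 against 1475 and 1895 CPM in DN blood cells, 0.60 ± 0.16, edgeR adjusted p = 0.034). The count was 0 without either Ly6C+ sum, without DN blood cells of dataset 2 and without the replicate block. It was 1 without either CD43+ sum, 8 without DN blood cells of dataset 1 and 24 by library totals alone. Within datasets, the median log2 ratio was 0.27 and 0.34.

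**Figure D3:**
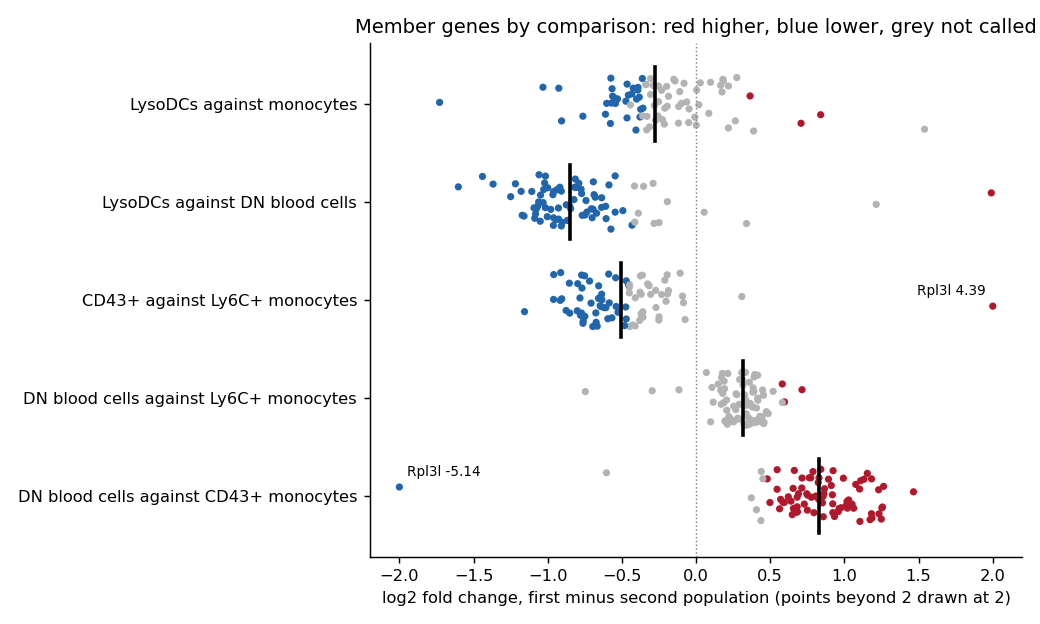
Log2 fold changes (horizontal axis, first minus second population) of the 82 tested ribosomal protein genes in 5 comparisons; each point is a gene, black bars are medians, and points beyond 2 are drawn at 2 and labelled. The medians run from -0.85 for LysoDCs against DN blood cells to 0.83 for DN blood cells against CD43+ monocytes, and Rpl3l stands apart in both comparisons that set CD43+ monocytes against another blood population.

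To see which members departed from the rest of the group, the same model was fitted with the summed ribosomal protein UMIs as library size. For LysoDCs against monocytes 18 members then took a larger and 19 a smaller part of the ribosomal protein pool, of 82. Of all 11458 genes 52.4% were called in this fit, in which genes outside the group carry the difference in the summed share, so that percentage says little of the members. Rplp1 made up 3.38% and 3.50% of ribosomal protein UMIs in LysoDCs against 1.69% to 1.87% in the 4 monocyte sums (log2 0.96 ± 0.06, edgeR adjusted p = 4.5e-07). Rpl22l1, described below with its parent gene, had the largest change among members that passed (log2 1.09 ± 0.11). Rps20 made up 2.40% and 2.23% against 1.42% to 1.62% (log2 0.61 ± 0.07, edgeR adjusted p = 1.6e-05). Rps2, near the mRNA entry of the small subunit, made up 1.38% and 1.19% against 0.689% to 0.904% (log2 0.63 ± 0.08, edgeR adjusted p = 6.9e-05). For Rplp1, Rps20 and Rps2 no LysoDC sum overlapped with a monocyte sum, and the 4 LysoDC subsets of dataset 1 had Rplp1 parts between 3.21% and 3.52%. The cDC2s of the same tissue had 2.14% at most.

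Within the pool, Rps27, Rps14 and Rpl34 took a smaller part in LysoDCs than in monocytes. Rps27 made up 0.561% and 0.743% against 0.828% to 1.43% (log2 -0.78 ± 0.08, edgeR adjusted p = 1.2e-05). Rps14 and Rpl34 fell by 0.66 and 0.52 on the log2 scale. Against DN blood cells 18 members were larger and 18 smaller (70.1% of all genes called), with Rpl22l1 at 1.16 ± 0.14, Rplp1 at 0.88 ± 0.07, Rps20 at 0.63 ± 0.08 and Rps29 at 0.58 ± 0.09, and with Rps27 (-0.62), Rpl13 (-0.55) and Rps14 (-0.43) among the smaller ones. Without either LysoDC sum the counts were 22 and 21 for the comparison with monocytes and 18 each for that with DN blood cells, which became 23 without DN blood cells of dataset 2. Without the block they were 15 and 14.

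In CD43+ against Ly6C+ monocytes 13 members took a larger and 13 a smaller part (36.1% of all genes called). Rps19, a small subunit protein which is mutated in Diamond-Blackfan anaemia in humans, made up 2.05% and 2.13% in CD43+ and 1.56% and 1.53% in Ly6C+ monocytes (log2 0.43 ± 0.08, edgeR adjusted p = 0.0022). Rps27 and Rps15 were also larger, at 0.42 ± 0.09 and 0.41 ± 0.10. Rpl7a made up 0.413% and 0.343% against 0.568% and 0.610% (log2 -0.65 ± 0.12, edgeR adjusted p = 0.0022). Rplp0 made up 1.60% and 1.31% against 2.10% and 1.87% (log2 -0.45 ± 0.08, edgeR adjusted p = 0.0021), and Rps18 and Rpl22 fell by 0.45 and 0.41. The count of 26 was 12 without Ly6C+ monocytes of dataset 1, 7 without CD43+ monocytes of dataset 2 and 2 without Ly6C+ monocytes of dataset 2. In that last setting Rps27, Rps15, Rpl7a, Rps18, Rplp0 and Rpl22 lost their calls and Rps19 did not, while without the block the count was 2 and of these 7 genes only Rpl7a passed.

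In DN blood cells against CD43+ monocytes 18 members took a larger and 12 a smaller part (59.3% of all genes called). Rpl12 led, at 0.823% and 1.02% against 0.560% and 0.625% (log2 0.64 ± 0.10, edgeR adjusted p = 0.00042), followed by Rpl7a (0.44 ± 0.12), Rps26 (0.43 ± 0.09) and Rpl14 (0.42 ± 0.10). Rps27a, which is made fused to ubiquitin, was at 2.30% and 2.10% against 3.04% and 2.97% (log2 -0.46 ± 0.07, edgeR adjusted p = 0.0005), and Rps19 and Rpl37a fell by 0.42 and 0.39. Against Ly6C+ monocytes only Rpl12 passed, as larger (log2 0.39 ± 0.10, edgeR adjusted p = 0.022), and 0 passed as smaller (18.3% of all genes called). At an unadjusted p under 0.05 the counts were 3 and 2. DESeq2 was not run on this scale. Rpl12 lost that call without either Ly6C+ sum, without DN blood cells of dataset 2 and without the block, and the count was 2 without either CD43+ sum and 3 without DN blood cells of dataset 1. For DN blood cells against CD43+ monocytes the count of 30 was 14 without CD43+ monocytes of dataset 2 (where Rpl7a lost its call), 18 without DN blood cells of dataset 2 and 6 without the block, where Rpl7a, Rpl14 and Rpl37a lost theirs.

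**Figure D4:**
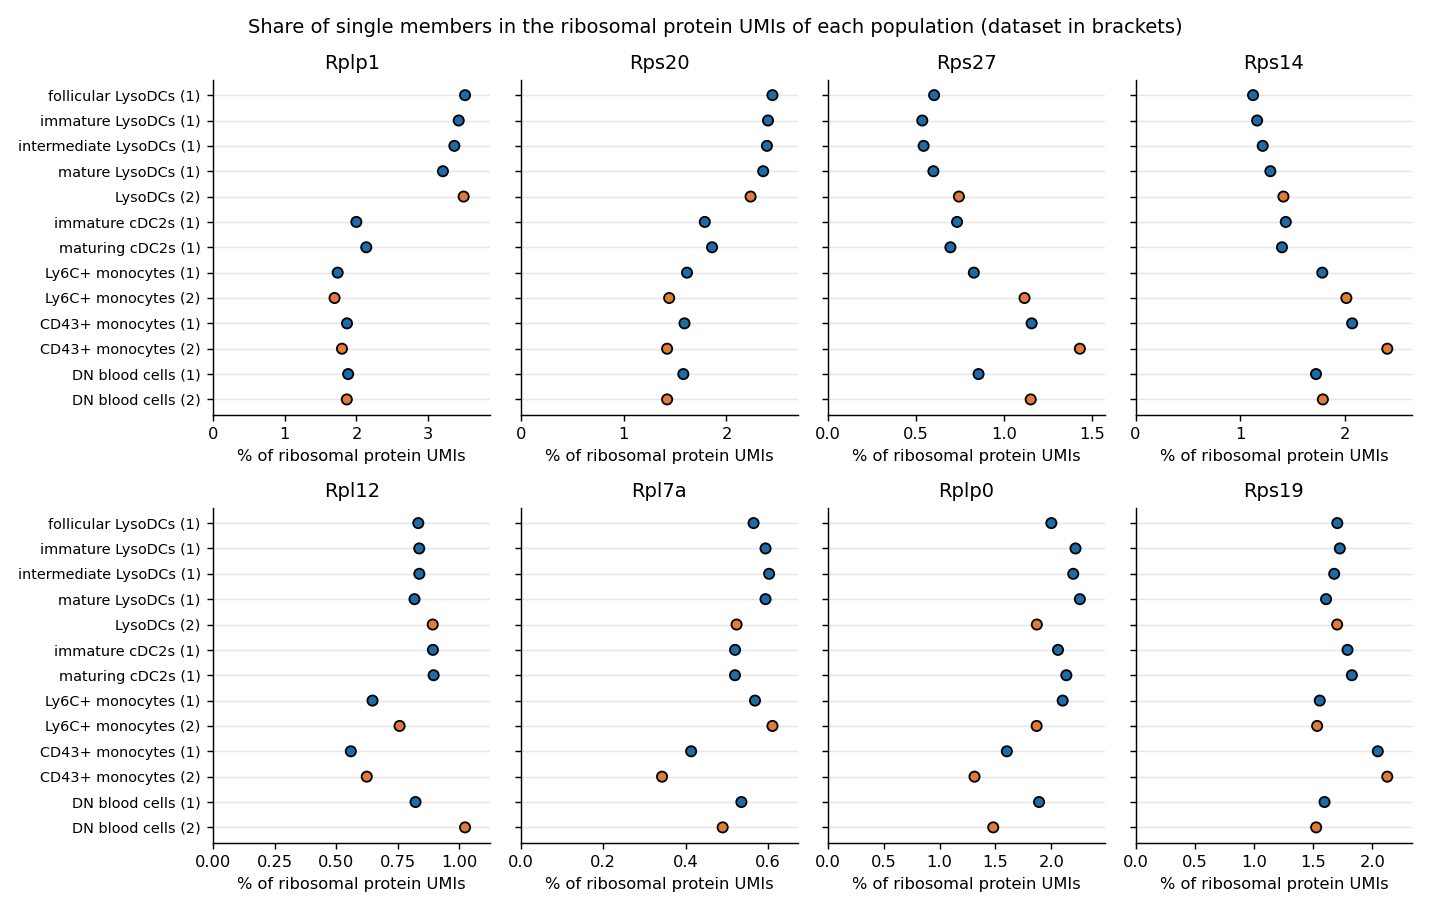
Part of the ribosomal protein UMIs taken by 8 members (horizontal axes, percent, each starting at 0) in 13 populations, dataset in brackets (blue dataset 1, orange dataset 2). Rplp1 and Rps20 are highest in the 5 LysoDC populations, where Rplp1 makes up 3.21% to 3.52%, and within each dataset Rpl7a and Rplp0 are lowest in CD43+ monocytes.

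The paralog Rpl3l stood out from all other members. It is known as the form of Rpl3 used in heart and skeletal muscle and lies on chr17:24727820-24736143 (plus strand, GRCm38). Its UMIs numbered 129 in CD43+ monocytes of dataset 1 (53.5 CPM, exact Poisson 95% interval 44.7 to 63.6) and 171 in dataset 2 (65.9 CPM, 56.4 to 76.5). Ly6C+ monocytes had 5 and 18 UMIs (1.21 and 3.46 CPM), DN blood cells 23 and 23 (3.00 and 0.799 CPM) and LysoDCs 104 and 27 (2.93 and 3.69 CPM). All other populations were thus at 4.22 CPM or less, and CD43+ monocytes were higher in both datasets. The log2 change was 4.39 ± 0.61 against Ly6C+ monocytes (edgeR adjusted p = 0.004), and for DN blood cells against CD43+ monocytes it was -5.14 ± 0.57 (edgeR adjusted p = 0.0013). Both calls held in all 17 alternatives, with adjusted p up to 0.048 and 0.022, while the log2 change ran from 3.76 to 5.55 and from -6.14 to -3.92. Rpl3l was also lower in LysoDCs than in the mean of both monocyte types (log2 -1.73 ± 0.54, edgeR adjusted p = 0.036), although LysoDCs lay above Ly6C+ monocytes in both datasets. That call held in 12 of 17 alternatives and was lost without either LysoDC sum, without either CD43+ sum and without Ly6C+ monocytes of dataset 2, with adjusted p up to 0.29. Rpl3 itself was at 1285 and 1068 CPM in CD43+ against 1648 and 1831 in Ly6C+ monocytes, so Rpl3l UMIs were 4.00% and 5.81% of the pair's UMIs there and at most 0.264% in any other population.

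Rpl3l UMIs were found in 15.8% of CD43+ monocytes of dataset 1 (105 of 663, exact 95% interval 13.1% to 18.8%) and 15.0% of dataset 2 (143 of 952, 12.8% to 17.4%). In Ly6C+ monocytes the share of cells was 0.537% and 1.96%, although those cells were deeper (median 4409 and 5920 UMIs against 2963 and 2312). Intermediate LysoDCs, the deepest population at 14279 UMIs, had 5.60%. The next gene on the same strand, Msrb1, starts at 24736642, downstream of the end of Rpl3l at 24736143. Msrb1 was at 1505 and 1371 CPM in CD43+, while Ly6C+ monocytes had 1098 and 910 CPM and DN blood cells 388 and 146 CPM. The part of reads from neighbouring transcripts in the Rpl3l counts was not tested.

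Rpl22l1 and its parent Rpl22, an RNA-binding protein of the large subunit, moved apart in LysoDCs. Rpl22 was at 834 and 781 CPM in LysoDCs and between 889 and 1679 CPM in the monocyte sums (log2 -0.42 ± 0.16, edgeR adjusted p = 0.038), while Rpl22l1 was higher there. Rpl22l1 UMIs made up 35.0% of the pair in LysoDCs of dataset 1 (Wilson 95% interval 34.5% to 35.4%) and 38.8% in dataset 2 (37.8% to 39.8%). The values were 16.9% and 18.8% in Ly6C+ monocytes, 20.0% and 22.9% in CD43+ monocytes, 16.6% and 19.5% in DN blood cells and 22.5% and 20.4% in immature and maturing cDC2s. Across the gates the part was 31.0% (follicular), 33.8% (immature), 36.2% (intermediate) and 37.2% (mature). All 5 LysoDC populations lay above all others, and the intervals of intermediate and mature LysoDCs overlapped.

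Rps27l is a p53-induced paralog of Rps27. It was at 199 and 221 CPM in LysoDCs, 258 and 385 in Ly6C+ monocytes, 202 and 226 in CD43+ monocytes and 241 and 345 in DN blood cells. Its difference between LysoDCs and monocytes did not pass (log2 -0.12 ± 0.16, edgeR adjusted p = 0.54), and as Rps27 was lower in LysoDCs it made up 19.7% and 17.1% of the pair there, against 8.40% to 13.2% in the 6 blood sums. In CD43+ monocytes it was lower than in Ly6C+ monocytes (log2 -0.77 ± 0.18, edgeR adjusted p = 0.011), a comparison in which Rps27 did not pass. Rpl7l1, a nucleolar relative of Rpl7, had 49.3 to 114 CPM in the 13 populations while Rpl7 itself had 1232 to 2549 CPM. It was lower in CD43+ than in Ly6C+ monocytes (log2 -0.46 ± 0.15, edgeR adjusted p = 0.047) and higher in DN blood cells than in CD43+ monocytes (log2 0.68 ± 0.15, edgeR adjusted p = 0.0058). Rpl39l, known from testis, had 0 to 3.93 CPM against 1473 to 3924 CPM of Rpl39. Rpl10l, also a testis form, had 1 UMI in each of 2 populations and 0 in the others, which in LysoDCs of dataset 1 allows up to 0.0845 CPM (3 counts), and its parent Rpl10 had 917 to 3167 CPM.

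**Figure D5:**
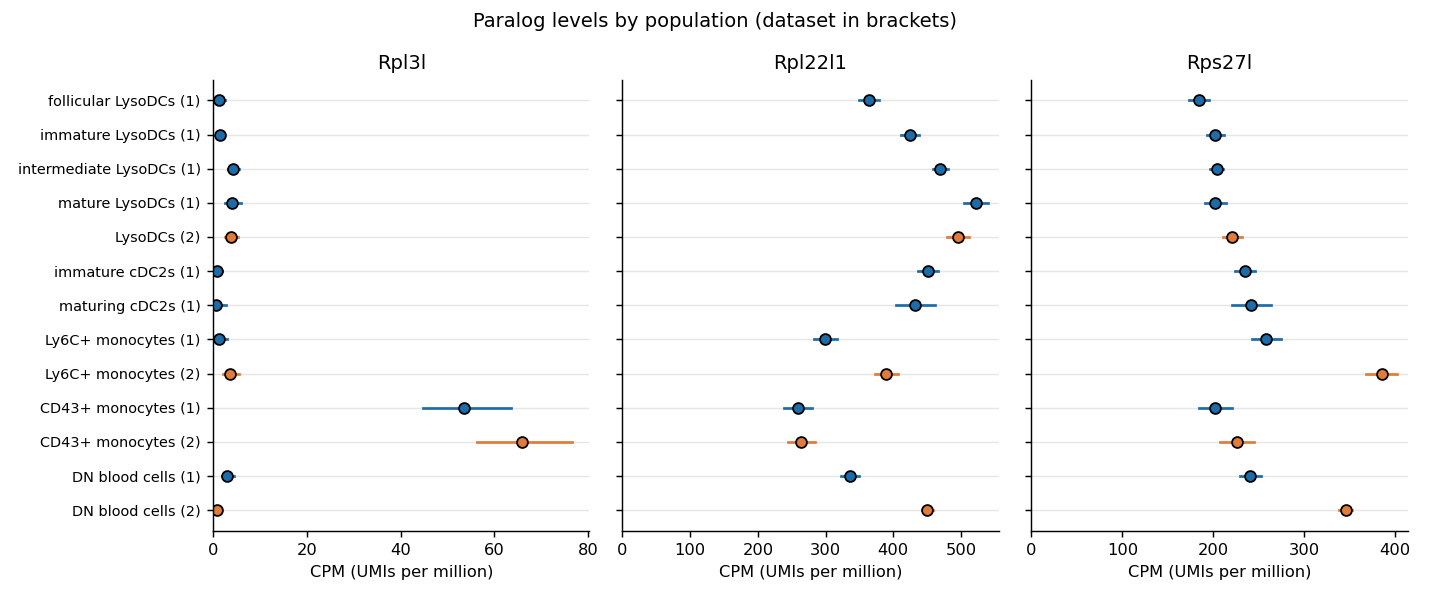
Levels (CPM, horizontal axes starting at 0) of the paralogs Rpl3l, Rpl22l1 and Rps27l in 13 populations, dataset in brackets (blue dataset 1, orange dataset 2), with exact Poisson 95% intervals that cover counting error only. Rpl3l is at 53.5 and 65.9 CPM in CD43+ monocytes and at 4.22 CPM or less elsewhere, and Rpl22l1 runs from 364 CPM in follicular to 522 CPM in mature LysoDCs.

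Ribosomal proteins with other names were measured beside the members. Fau, whose product is processed to the small subunit protein eS30, was at 3647 and 3519 CPM in LysoDCs and between 7014 and 8777 CPM in the blood sums (log2 -0.89 ± 0.14 against monocytes, edgeR adjusted p = 0.0003, and -1.23 ± 0.16 against DN blood cells). Rack1, a signalling scaffold on the small subunit, was at 1124 and 1180 CPM in LysoDCs and 1958 to 3259 CPM in the blood sums (log2 -0.71 ± 0.14 and -1.31 ± 0.16). For both genes the groups did not overlap. Rps27rt, a copy of Rps27, fell by 1.06 on the log2 scale in LysoDCs against monocytes. Rpl36al, a second gene for the Rpl36a protein, was lower in CD43+ than in Ly6C+ monocytes (769 and 688 against 1250 and 1278 CPM, edgeR adjusted p = 0.0012). It made up 49.4% to 69.8% of the pair with Rpl36a, which had 439 to 1228 CPM, and the near identity of the pair leaves that split uncertain.

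In single-library comparisons of dataset 1, immature cDC2s gave a larger share of their UMIs to ribosomal proteins than immature LysoDCs, although the median cell held fewer such UMIs (1667.5 against 1977). Of 80 members at 20 CPM or more, 54 were at least 1.5-fold higher in immature cDC2s than in immature LysoDCs and 0 were lower by that much, when 28.9% and 16.6% of all genes were. The median member stood at a log2 ratio of 0.70 (1.63-fold), against 0.25 for all genes. Rps26 was at 2973 against 1338 CPM (2.22-fold), Rps27 at 1660 against 774 CPM (2.15-fold), Rpl11 at 3118 against 1461 CPM (2.13-fold) and Rpl13 at 4568 against 2169 CPM (2.11-fold). Rplp1 (0.913-fold) and Rps29 (0.975-fold) alone were below 1. Maturing cDC2s differed little from immature ones: 0 of 80 members reached 1.5-fold (7.95% of all genes did), the median log2 ratio was 0.07 (-0.08 for all genes) and the range was 0.828-fold for Rpl7l1 to 1.12-fold for Rplp1.

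Among the most abundant members over the 8 tested sums were Rps27a, Rps9, Rpl13, Rps24, Rplp1, Rpl23, Rps12 and Rps16, with means from 5000 CPM for Rps27a to 4054 CPM for Rps16. These are counts of mRNA 3′ ends that were not divided by length, and reads shared with processed pseudogenes can lower them, so the order among genes is uncertain.

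Other genes of the translation machinery were described from lists. Their counts are to be read against the shares of all genes called, which were 29.9% higher and 27.4% lower for LysoDCs against monocytes, 26.0% and 26.1% for LysoDCs against DN blood cells, and 13.5% and 14.5% for CD43+ against Ly6C+ monocytes. The shares were 7.37% and 7.39% when DN blood cells were set against Ly6C+ monocytes, and 17.1% and 16.2% against CD43+ monocytes. Of 46 ribosome biogenesis genes, which assemble ribosomes in the nucleolus, 20 were higher and 3 lower in LysoDCs than in monocytes (median log2 0.36), where 30 of 82 ribosomal protein genes were lower. Wdr12 led with 2.05 ± 0.17, followed by Nhp2 with 1.45 ± 0.14 and Heatr1 with 1.18 ± 0.13. Against DN blood cells 3 were higher and 11 lower (median -0.09), among them Fbl, the rRNA methyltransferase fibrillarin, which fell by 1.45 (63.8 and 62.9 CPM against 173 and 188). In DN blood cells 15 of the 46 were higher than in Ly6C+ monocytes and 0 lower (median 0.44), led by Nop16 (1.27 ± 0.19, edgeR adjusted p = 0.0022). In DN blood cells against CD43+ monocytes 19 were higher and 0 lower, and Fbl rose by 1.67 ± 0.17. In CD43+ against Ly6C+ monocytes 2 were higher and 9 lower.

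Most genes of the elongation factor list differed between CD43+ monocytes and the other blood populations. The list also held Naca, Btf3, Tpt1, Eef1e1 and Eef2k, so its counts are not of elongation factors alone. Of its 11 genes, 10 were higher in DN blood cells than in CD43+ monocytes. In CD43+ against Ly6C+ monocytes 6 were lower, with 0 in the other direction in each comparison. Naca, of the nascent polypeptide complex, was at 720 and 802 CPM in CD43+, while Ly6C+ monocytes had 1113 and 1305 CPM and DN blood cells 1158 and 1343 CPM. In LysoDCs against monocytes 2 genes of this list were higher and 4 lower. Among the higher ones was Eef2k, the kinase that inhibits elongation factor Eef2, at 15.8 and 23.1 CPM against 0.770 to 4.57 (log2 2.93 ± 0.34, edgeR adjusted p = 0.0001). Eef2 itself fell by 0.37. Of 37 initiation factors 12 were higher and 13 lower in LysoDCs than in monocytes (median -0.04), shares near the 29.9% and 27.4% of all genes, with Eif2b3 at 1.13 ± 0.17 and Eif3f at -0.89 ± 0.13.

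Mitochondrial ribosomal proteins serve the separate ribosomes of mitochondria. Of 78, 25 were higher and 10 lower in LysoDCs than in monocytes (median log2 0.11), a higher share near the 29.9% of all genes, with Mrpl41 at 0.99 ± 0.15 and Mrpl33 at -2.26 ± 0.16. In CD43+ monocytes 30 were lower and 1 higher than in Ly6C+ monocytes (median -0.42), and 33 were higher and 2 lower in DN blood cells than in CD43+ monocytes. Among 22 genes that control translation of ribosomal protein mRNAs, 4 were higher and 7 lower in LysoDCs than in monocytes (median -0.14), and of 15 tested genes of ribosome quality and stress 2 and 4. Of 10 tested genes of the Myc group, 4 were higher and 2 lower, and Mycl, a Myc relative, was at 16.4 and 22.2 CPM in LysoDCs against 0.962 to 1.66 in monocytes. Cell cycle genes, listed as another marker of growth, were at 0.0936% and 0.0923% of UMIs in LysoDCs and at 0.0221% to 0.0376% in the blood sums, and 26 of 28 were higher in LysoDCs than in monocytes and 0 lower (median log2 3.11).

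Among 2714 other genes with a mean of at least 50 CPM, those whose level followed the summed ribosomal protein CPM most closely over the 13 populations were Vrk1, Itpr1, Naca, H2afy, Eef1d, Snrpg, Trmt112 and Cct5. Their Pearson r lay between 0.964 and 0.971 (log2 CPM centred within dataset). Those that ran most opposite to it were Adam17, Susd6, Tbc1d20, Kif1b, Ctsd, Pla2g7, Gna13 and Slc2a6, with r between -0.990 and -0.959. The sums of dataset 1 share 1 library, and those of dataset 2 come from 4. Median depth differed between populations, from 2963 to 14279 UMIs in dataset 1 and from 2312 to 8999 UMIs in dataset 2. As 5 of the 13 sums are LysoDCs, these values describe the likeness and carry no test. Adam17, a protease that sheds surface proteins, ranged from 52.1 to 149 CPM, and Ctsd, the lysosomal protease cathepsin D, from 57.0 to 1335 CPM.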

How the data were processed

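Single-cell mRNA and hashtags were measured with 10x 3′ chemistry. Raw UMI counts for each gene and barcode were deposited; per the file headers they were written by Cell Ranger 6.0.1, while the submitters' processing notes name Cell Ranger 2.0.0 and mm10. Hashtags were called with HTODemux (Seurat 5.3.0, quantile 0.99), which left 8343 and 8516 singlets of 11878 and 13111 barcodes; cells with several hashtags were removed as doublets. Cells with under 1000 UMIs, under 500 genes or over 10% mitochondrial UMIs were left out.

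Counts were summed per population and dataset, giving 8 sums for tests, from 4 populations with 2 pools of mice each. The datasets are separate pools of mice that differ in when hashtags were added, per the labels, and the blood populations of a dataset come from the same pooled donors, so dataset was a replicate block. Tests used edgeR 4.0.16 (TMM, filterByExpr, robust quasi-likelihood fit, 3 residual degrees of freedom, Benjamini-Hochberg over 11458 genes, threshold 0.05, two-sided) and were checked on simulated counts; p-values rest on the spread between these pools. Relative levels used the summed ribosomal protein UMIs as library size. DESeq2 1.42.0, other scalings, no filter, no block, another hashtag call, a stricter cell filter and leaving out each sum were tried. Single-library comparisons in dataset 1 have no test and call a 1.5-fold ratio with at least 20 CPM. Counting error gave exact Poisson, Wilson and exact binomial 95% intervals.

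The members, lists and named genes were chosen with earlier results of these data known. In each tested comparison the 6 largest changes each way are named among members past the threshold that moved one way in both datasets and reached 50 CPM in each dataset; for relative levels it is the 4 largest. Paralogs and their parents, ribosomal proteins outside the name rule, the 10 most abundant members and genes of the translation lists with the smallest p are named as well. A few genes that these rules name are not reported here. Members that did not pass and examples below these ranks were chosen after their values were seen.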

Additional observations from a re-analysis of the deposited data

Results flagged for a closer look

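Rps29, a zinc-binding small subunit protein, went opposite ways in the datasets between CD43+ and Ly6C+ monocytes. It was at 3459 CPM in CD43+ and 2933 CPM in Ly6C+ monocytes of dataset 1, a log2 ratio of 0.24, and at 3713 against 4324 CPM in dataset 2, a log2 ratio of -0.22. With 1 sum per population and dataset the difference between datasets was not tested. It was the only member with ratios of at least 0.2 either way in opposite directions in any of the 5 comparisons. No population has enough sums to single out an outlying one.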

How the results depend on the processing

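All differences in the summed ribosomal protein share kept their direction and moved by less than the spread between datasets with another hashtag call, a stricter cell filter, non-mitochondrial UMIs, means over cells, and 2 limits chosen after seeing the data (cells of at least 5000 UMIs, LysoDCs with at least 5 C1q UMIs); that of LysoDCs and monocytes ran from -5.54 to -4.80 percentage points around -5.14. Counts of members called depended more on the setting. By library totals alone 61 members were called for LysoDCs against monocytes and 24 for DN blood cells against Ly6C+ monocytes, where no filter gave 5 and DESeq2 gave 8. Without the replicate block the counts were 19 (LysoDCs against monocytes), 25 (CD43+ against Ly6C+ monocytes) and 0 (DN blood cells against Ly6C+ monocytes), and for relative levels 15, 14, 2, 0 and 6 in the order LysoDCs against monocytes and DN blood cells, CD43+ against Ly6C+, DN against Ly6C+ and DN against CD43+; the other counts changed by less than 1.5 times. Leaving out 1 sum at a time gave 10 to 38, 55 to 75, 3 to 48, 0 to 8 and 28 to 77 members in that order, and 21 to 40, 18 to 38, 2 to 31, 0 to 3 and 14 to 28 for relative levels; a population left with 1 sum is assumed to vary like the others. Of the named members' values under alternatives, 830 kept their call, 61 kept the direction without passing and 0 reversed. The cause of these changes was not tested. With 2 pools per population, small differences were not detectable.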

Other observations

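Some members differed between the datasets in every population. Of 81 members that reached 20 CPM in a population, 3 were more than 1.5-fold higher in dataset 2 in each of the 4 populations present in both. Rpl35 was 1.60-fold to 2.83-fold higher, Rpl10 1.54-fold to 1.97-fold and Rpl4 1.52-fold to 1.83-fold. Rpl35 was at 257 CPM in LysoDCs of dataset 1 and 591 CPM in dataset 2. Counting a ratio of any size, 27 members were higher and 13 lower in dataset 2 in all 4 populations, with Rpsa at 0.741-fold to 0.843-fold. Ratios between datasets were not counted over all genes, so whether genes of any kind differed as often was not tested. Datasets differ in pools of mice, libraries and time of tagging, which cannot be told apart, and dataset was a block in the tests.

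Within a dataset the members were mostly highest in the same population. In dataset 2, DN blood cells had the highest level of 76 of the 81 members, and LysoDCs had the lowest level of 58 and CD43+ monocytes of 22. In dataset 1, 49 were highest in DN blood cells and 24 in maturing cDC2s, and 62 were lowest in follicular LysoDCs and 12 in CD43+ monocytes. The same was not counted over all genes, so these counts do not set the members apart from genes of any kind.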
